A study of Mus musculus with 33 samples.

Results

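Mitochondrial ribosomal proteins were examined as a family, defined by symbol as every row of the expression table whose name is Mrpl or Mrps followed by a number and at most 1 letter. The rule used no measured value and gave 77 of the 21565 genes, 48 Mrpl genes named for the large subunit and 29 Mrps genes named for the small subunit. Their RNA was measured by RNA-seq of polyadenylated RNA from the frontal cortex of 33 adult male mice on a C57BL/6J background, 1 library each. All tissue was taken at ZT 6, that is 6 hr after the time of lights on in the earlier light-dark cycle. The study's methods state that a dark/dark schedule was started before the experimental day in every sleep condition. Lights on is thus a clock time here and does not mean that the mice were in light. Sleep was prevented with a slow treadmill. Wild type (WT) mice were left free to sleep (control sleep, CS, n = 6), kept awake for 6 hr (sleep deprived, SD, n = 7), or kept awake for 4 hr and then allowed 2 hr of recovery sleep (RS, n = 7). Mef2c f/f mice carry loxP sites around exon 11 of Mef2c, an exon for the DNA-binding part of this transcription factor, and were studied in CS (n = 4) and SD (n = 3). Mef2c-cKO mice carry in addition a Camk2a-Cre transgene, whose promoter is active in forebrain excitatory neurons, and were studied in CS (n = 3) and SD (n = 3). By the study's methods some of these mice also had germline recombination of 1 allele, so other cells can carry the deletion too.

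Mitochondrial ribosomes translate the few proteins that are encoded by mitochondrial DNA, all of them subunits of the respiratory chain and ATP synthase. Every one of their own proteins is encoded in the nucleus, made in the cytosol and imported, and some descend from proteins of bacterial ribosomes while others were added later in evolution. The small subunit reads the messenger RNA at the decoding centre, and the large subunit holds the peptidyl transferase centre and the exit tunnel. Nuclear genes for mitochondrial proteins are known for promoters with sites for NRF1, for ETS factors such as GABP and for YY1. Symbols do not always give the place in the ribosome. Mrps18a and Mrps30 are built into the large subunit, and Mrps36 belongs to the alpha-ketoglutarate dehydrogenase complex.

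Promoters of 4 members are shown because the results below turn on these genes, 3 that were among the largest rises in sleep deprived WT mice and Mrpl1, the 1 that fell. Each is 300 bases of RefSeq sequence on GRCm38.p6, from 250 bases before to 50 bases after the annotated start, written 5′ to 3′ on the strand of the gene. They are chr13:73330759-73331058 on the plus strand for Mrpl36, chr11:120484387-120484686 on the plus strand for Mrpl12, chr7:28741772-28742071 on the minus strand for Mrps12 and chr5:96209865-96210164 on the plus strand for Mrpl1. Capitals mark matches, on either strand, to the YY1 letters AAGATGG in Mrpl36 and Mrps12, an NRF1 motif (GCGCA, any base, GCGC) in Mrpl12, and the ETS letters CCGGAAG in Mrps12. Mrpl1 has no match to any of these.
Mrpl36: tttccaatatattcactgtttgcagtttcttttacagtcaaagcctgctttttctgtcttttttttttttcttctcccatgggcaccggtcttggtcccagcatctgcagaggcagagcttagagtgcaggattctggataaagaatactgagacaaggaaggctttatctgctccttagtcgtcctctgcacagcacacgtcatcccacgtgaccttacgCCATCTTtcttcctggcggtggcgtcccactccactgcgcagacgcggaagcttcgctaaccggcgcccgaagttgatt
Mrpl12: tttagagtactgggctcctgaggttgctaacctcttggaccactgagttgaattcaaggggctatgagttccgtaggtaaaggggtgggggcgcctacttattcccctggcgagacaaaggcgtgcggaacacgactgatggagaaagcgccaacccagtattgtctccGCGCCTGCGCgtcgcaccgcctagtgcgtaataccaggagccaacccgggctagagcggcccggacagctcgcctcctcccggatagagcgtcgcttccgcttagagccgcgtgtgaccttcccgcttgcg
Mrps12: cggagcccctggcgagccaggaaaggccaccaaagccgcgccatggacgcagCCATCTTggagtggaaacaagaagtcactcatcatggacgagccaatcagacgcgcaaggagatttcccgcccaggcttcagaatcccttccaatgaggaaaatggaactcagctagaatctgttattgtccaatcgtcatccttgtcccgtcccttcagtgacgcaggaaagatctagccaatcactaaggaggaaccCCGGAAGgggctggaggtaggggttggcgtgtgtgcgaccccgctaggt
Mrpl1: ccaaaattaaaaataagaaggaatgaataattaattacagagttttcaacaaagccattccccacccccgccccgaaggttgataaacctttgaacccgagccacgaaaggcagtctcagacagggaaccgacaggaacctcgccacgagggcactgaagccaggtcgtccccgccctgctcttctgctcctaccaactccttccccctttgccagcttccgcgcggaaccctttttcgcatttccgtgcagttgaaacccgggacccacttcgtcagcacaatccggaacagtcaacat
A promoter was found for 68 of the 77 members. The ETS letters stood in 24 of them (35.3%), where 9.12% of all 27025 promoters hold them. The YY1 letters stood in 13 (19.1%, against 6.48% of all promoters), and the NRF1 motif with this open centre also in 13 (19.1%, against 4.78%). With T at the open base, the palindrome of NRF1 and a subset of the open form, there were 3 (4.41%, against 0.977%). These promoters were also richer in GC, with a median of 58.2% against 52.7%, and a match in this window is a description of the letters only. For 18 of the 77 members (23.4%) the start of another protein-coding gene lay head to head within 1000 bases, which holds for 6.79% of all protein-coding genes. The members were spread over 17 chromosomes, with 10 on chromosome 11.

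Of the 77 members, 74 passed the filter on low values in every comparison, 45 of the large and 29 of the small subunit. A gene passed where every replicate of a compared group had a CPM of 1 or more, where CPM are read counts scaled to the library total, and levels are given here as rescaled CPM, that is CPM divided by a size factor of the library. The 74 had between 83 and 13644 reads in a library, with a median of 1379. The other 3 are large subunit genes that were at or near 0 in all libraries. Mrpl2 and Mrpl53 are listed at 0 in all 33, and Mrpl33 had 8 reads in all. Rpl13, Cox4i1 and Ndufa13, which every cell uses, are also listed at 0 in all libraries, so a 0 in this table sets no limit on the level of a gene. In the GENCODE M21 annotation 88.0% of the exon bases of Mrpl53 are shared with Gm42688 on the same strand, and of Mrpl33 3.56% are shared with Gm43809. Mrpl2 shares none, and the part of shared exons in these values was not tested.

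The totals recovered from the table were 44395583 to 249046089 reads in WT libraries and 18935045 to 94678945 in the others. The Spearman rho between replicates was 0.971 to 0.995, and no pair was alike within sampling noise. Deposited CPM over the genes listed summed to 925580 to 985958 in WT libraries and to 1000000 in those of the Mef2c line, and Twnk and Mrm3 were at 0 in every library of the Mef2c line and above 0 in every WT library. Mef2c itself had a median of 1150 rescaled CPM in f/f CS (1080 to 1207) and 1608 in cKO CS (957 to 1727), and since the deletion removes 1 exon this level of the whole gene does not check the genotype labels. Of the 6 excitatory neuron markers none was at 0 in any group. In bulk tissue fewer cells of a type and less RNA per cell cannot be told apart. Across genes, the deviation of a WT library from the WT mean went with transcript GC content, at a rho of -0.78 to -0.13 in CS libraries and -0.01 to 0.77 in SD libraries.

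In WT CS the 74 measured genes covered a range from 4.09 to 69.4 rescaled CPM, with Mrpl14 lowest and Mrps9 highest. Compared between genes, levels are given per kb of the annotated transcript, which the true transcript in cortex may not match. Highest on that scale in WT CS were the small subunit genes Mrps21, at 58.7 ± 8.61 CPM per kb (SD, n = 6), and Mrps9, at 49.0 ± 6.20. Mrpl42 followed with 46.0 ± 4.90, Mrps28 with 32.7 ± 6.39 and Mrpl41 with 32.0 ± 5.15 CPM per kb. Neighbours in this order, from Mrps9 to Mrpl42 and from Mrps28 to Mrpl41, differed by less than their SD. None of these 5 was called in the WT comparisons with the rescaled values. After the correction for transcript GC and length given below, Mrps21 and Mrps28 were called lower from CS to SD (log2 fold changes -0.47 and -0.78). Mrps28 was then also called lower from CS to RS (-0.65). Over the 7 groups the mean of Mrps21 went from 57.3 to 69.2 CPM per kb, without that correction. Lowest were Mrpl17 at 1.84 ± 0.227, Mrpl19 at 3.31 ± 0.336, Mrpl35 at 3.88 ± 0.288, Mrps16 at 4.43 ± 0.872 and Mrpl47 at 4.45 ± 0.448 CPM per kb, all with annotated transcripts of 2572 bases or longer. Here 3 of the 5 (Mrpl17, Mrpl19 and Mrps16) were called higher from CS to SD, where 24.6% of all genes tested were. Whether level per kb went with the response was not tested.

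The subunits had similar medians. In WT CS the median was 12.9 CPM per kb over the 45 large subunit genes and 12.3 over the 29 small subunit genes. Summed over the genes as listed, the large subunit had 1.49 ± 0.0328 times the CPM of the small subunit in WT CS (SD, n = 6), 1.52 ± 0.0512 in WT SD (n = 7) and 1.52 ± 0.0424 in WT RS (n = 7). In the Mef2c line the same ratio was 1.47 ± 0.0504 in f/f CS, 1.52 ± 0.0121 in f/f SD, 1.52 ± 0.0252 in cKO CS and 1.498 ± 0.01997 in cKO SD. The ratio of single WT libraries ran from 1.44 to 1.53 in CS, 1.45 to 1.57 in SD and 1.45 to 1.56 in RS, so that the groups overlapped. Replicates differed by a coefficient of variation of 15.01% in the median member in WT CS, 15.2% in WT SD and 15.1% in WT RS. The steadiest member in WT CS was Mrpl22, a protein near the exit tunnel, with 4.06%, and the least steady was Mrpl36 with 66.1%. Over genes of similar level (10 to 60 rescaled CPM) the median was 16.98% in WT CS and 12.03% in WT SD.

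**Figure D1:**
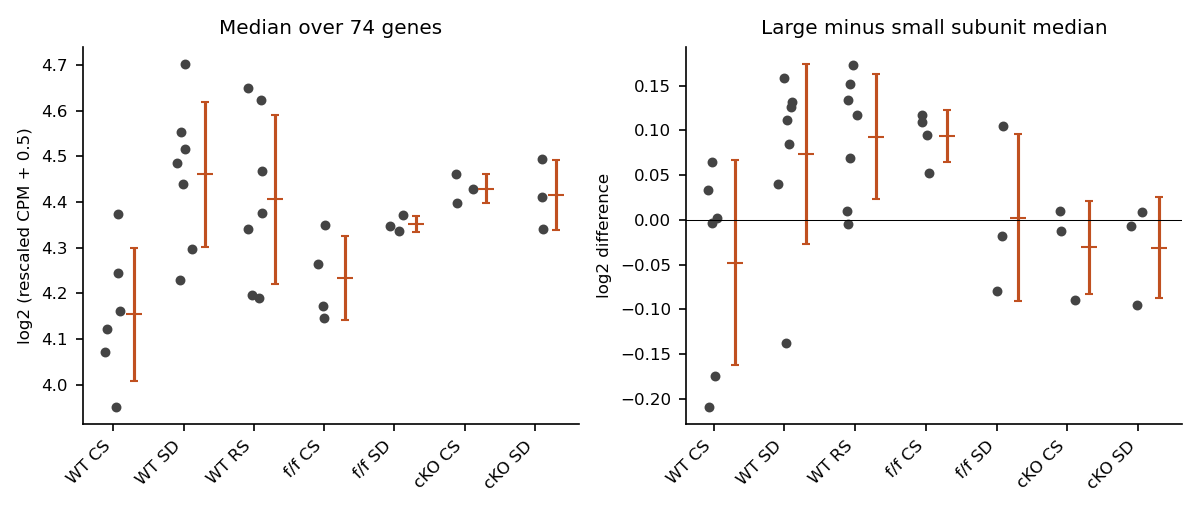
Each point is 1 library. The left panel gives the median log2 level (rescaled CPM + 0.5) over the 74 measured genes and the right panel the median of the large subunit minus that of the small subunit, both on the log2 scale, with the mean and SD of each group in orange. WT SD libraries lay at 4.23 to 4.70 and WT CS libraries at 3.95 to 4.37, so that the groups overlapped, and in the right panel 1 WT SD library stood at -0.14 while the other SD libraries lay at 0.04 to 0.16.

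The first comparison asks how 6 hr of wakefulness in the usual sleep time changed these genes in WT mice. From CS to SD 28 of the 74 members rose and 1 fell, that is 39.2%, where 45.1% of all 12913 genes tested were called. A call required that limma gave an adjusted p of 0.05 or less (Benjamini-Hochberg, all genes tested) and a log2 fold change of 0.3 or more in either direction. The members were thus not called more often than other genes, but the direction was unequal, with 37.8% higher against 24.6% of all genes and 1.35% lower against 20.5%. Their median log2 fold change was 0.23, with 0.04 for all genes tested. With an unadjusted p up to 0.05 there were 40 of the 74, where 59.5% of all genes passed. With CPM as deposited, without the size factors, these medians were 0.49 and 0.30, and 51 members were higher and none lower, where 53.5% of all genes were called. In the large subunit 18 of 45 rose and 1 fell (median 0.25), and in the small subunit 10 of 29 rose and none fell (median 0.18). The difference between these medians was 0.07, and 0.026 to 0.116 with a single library left out. Within libraries the median level of the large minus that of the small subunit was -0.05 ± 0.11 on the log2 scale (SD, n = 6) in CS and 0.07 ± 0.10 (n = 7) in SD, with overlap, and whether the subunits responded differently was not tested. By place in the ribosome rather than by symbol, the medians were 0.25 over 47 large subunit genes and 0.17 over 26 small subunit genes.

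**Figure D2:**
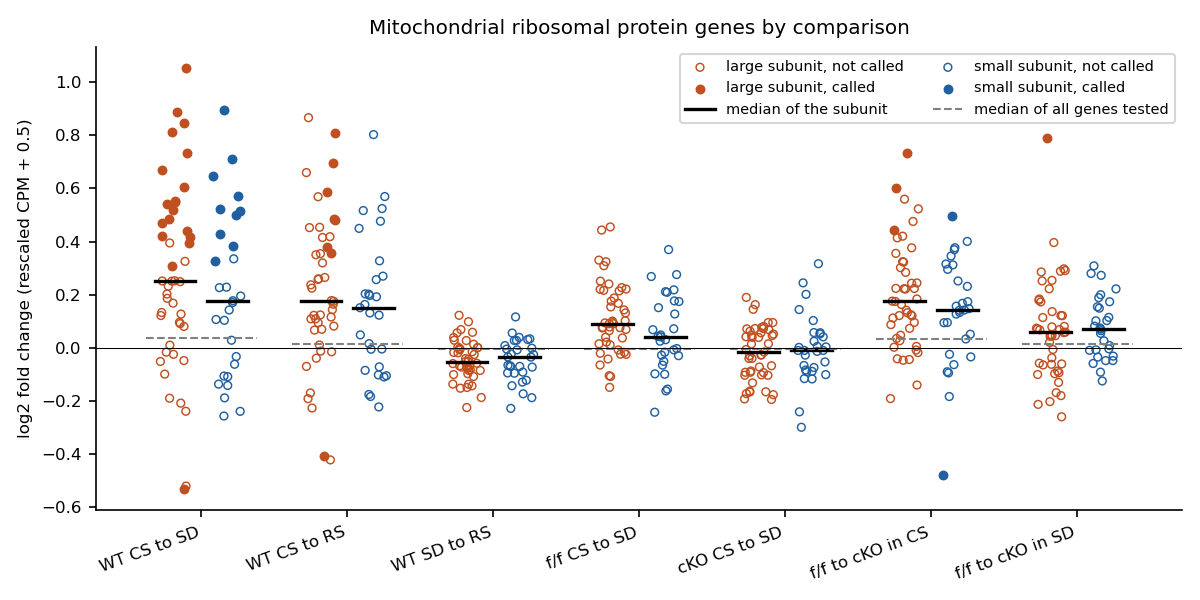
Each point is 1 member, with its log2 fold change in 7 comparisons (vertical axis, log2 of rescaled CPM + 0.5), large subunit in orange and small subunit in blue. Filled points were called, black bars are the median of each subunit and dashed grey lines the median of all genes tested. From WT CS to SD most filled points are above 0 in both subunits, from CS to RS all 8 filled points belong to the large subunit, and from SD to RS, f/f CS to SD and cKO CS to SD no point is filled.

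The largest rise was that of Mrpl36, a small protein of the large subunit with a bacterial counterpart, on chromosome 13 of GRCm38 from 73328513 to 73332178. CS libraries had 2.37, 6.09 and 15.3 rescaled CPM as lowest, median and highest value, and SD libraries 9.32, 13.0 and 21.1. The groups overlapped through 1 CS library at 15.3. The log2 fold change was 1.05 ± 0.32 (SE; limma, adjusted p = 0.0156), from 7.05 ± 4.66 (SD, n = 6) to 13.3 ± 3.91 (n = 7).

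Mrps12, a protein of the decoding centre, had 4.37, 12 and 25.8 rescaled CPM as lowest, median and highest value in CS and 13.9, 24.8 and 30.9 in SD. The groups overlapped, with 2 CS libraries (16.8 and 25.8) above the lowest SD library, and the log2 fold change was 0.90 ± 0.30 (SE; limma, adjusted p = 0.0234). Its start is head to head with that of Sars2, the mitochondrial seryl-tRNA synthetase. Mrpl28, also with a bacterial counterpart, had 6.00, 11.3 and 17.7 in CS and 13.98, 21.6 and 32.4 in SD, with the lowest SD library below 2 CS libraries (17.6 and 17.7), and a log2 fold change of 0.89 ± 0.23 (SE; limma, adjusted p = 0.00803).

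Mrpl12, a protein of the stalk on which translation factors dock, had the smallest adjusted p among the members that rose. It had 7.37, 10.8 and 12.9 rescaled CPM in CS and 14.3, 18.7 and 23.7 in SD, so that every SD library was above every CS library. The log2 fold change was 0.81 ± 0.15 (SE; limma, adjusted p = 0.00145). Mrpl52, a protein without bacterial counterpart, had 4.77, 5.39 and 8.03 in CS and 5.72, 11.7 and 15 in SD, and its log2 fold change was 0.85 ± 0.19 (SE; limma, adjusted p = 0.00383). Here the lowest SD library lay inside the CS range.

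Mrpl1 was the only member called lower with the rescaled values. With CPM as deposited its log2 fold change was -0.26, inside the fold threshold. Its protein forms the stalk of the large subunit on the side where tRNA leaves, and its gene lies on chromosome 5 from 96209493 to 96266727. CS libraries had 49.5, 55.3 and 74.9 rescaled CPM and SD libraries 34.5, 39.3 and 43.9, so that the groups did not overlap. It fell by 0.53 on the log2 scale (SE 0.094; limma, adjusted p = 0.00133). Mrpl32 had nearly the same log2 fold change, -0.52, but its adjusted p was 0.0600 and it was not called.

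Other members with large rises were Mrpl20 (log2 fold change 0.73), Mrps24 (0.71), Mrpl14 (0.67), Mrps7 (0.65), Mrpl57 (0.61), Mrps11 (0.57) and Mrpl43 (0.55), with adjusted p from 0.00594 for Mrps24 to 0.0413 for Mrpl57. Mrps24, which lines the entry of the messenger RNA, had 8.40, 9.89 and 14.2 rescaled CPM in CS and 12.7, 15.2 and 29.6 in SD, and 15.4% of its exon bases are shared with Urgcp on the same strand, so that its reads are uncertain. Mrpl57 had 1 CS library at 27.2 while the others lay at 9.36 to 10.7, and the groups overlapped. Of the exon bases of Mrpl43 33.4% lie opposite Twnk, the mitochondrial DNA helicase, on the other strand. Groups of libraries did not overlap for 4 members that rose (Mrpl9, Mrpl12, Mrpl19 and Mrps6, 5.41% of 74) and for Mrpl1 that fell, where 4.68% of all genes had every SD library above every CS library and 10.4% the reverse. Mrps6 shares 19.9% of its exon bases with Gm49711 and Slc5a3 on the same strand, so that its reads are uncertain in every comparison.

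**Figure D3:**
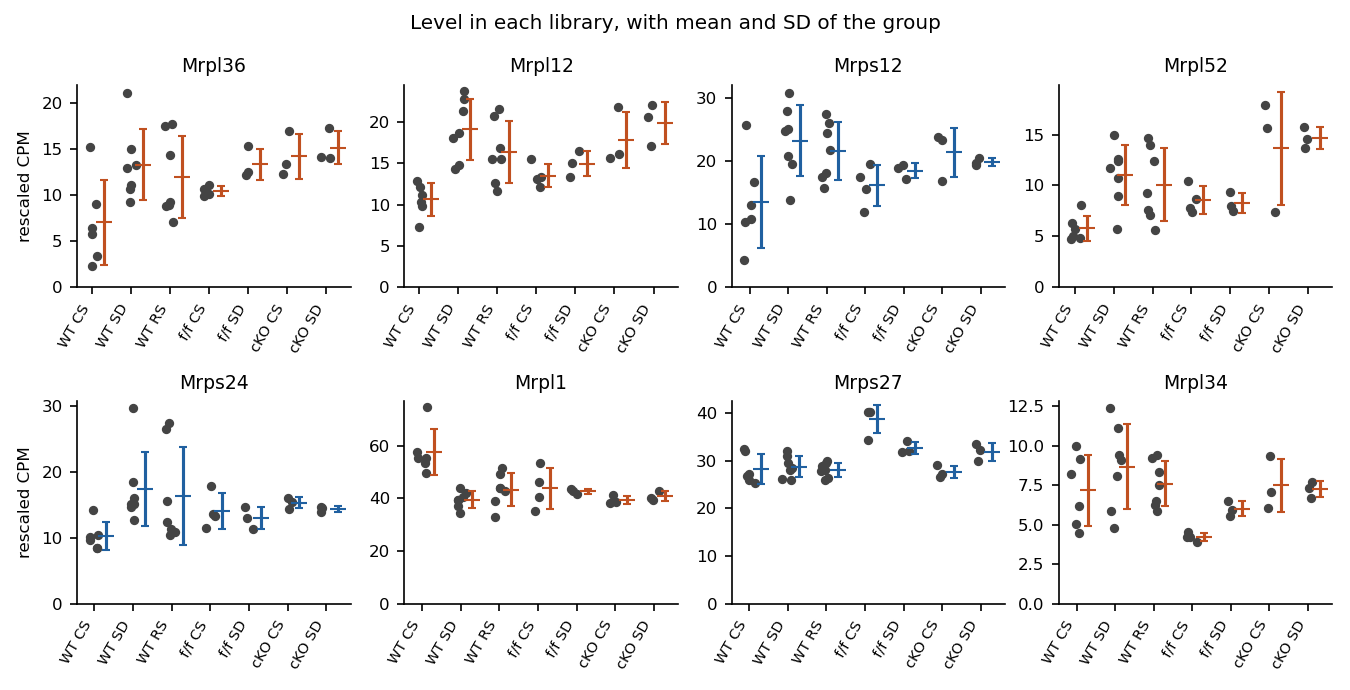
Each panel gives 1 member and each point 1 library, in rescaled CPM on an axis that starts at 0, with the mean and SD of each group beside the points. In WT mice Mrpl36, Mrpl12, Mrps12, Mrpl52 and Mrps24 lay higher in SD than in CS and Mrpl1 lay lower, and in the Mef2c line Mrps27 was lower and Mrpl34 higher in cKO CS than in f/f CS.

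The rise from CS to SD moved with the base composition of the transcripts. Across all genes tested, log2 fold change and GC content had a Spearman rho of 0.72 (12444 genes), and across the 74 members a rho of 0.50, where genes share the same libraries and are no independent replicates. Members above the median GC content of the family included 21 that rose and none that fell (37 genes, median log2 fold change 0.43), and those at or below it 7 that rose and 1 that fell (37 genes, median 0.10). The family as a whole had a median GC content of 50.4%, close to the 50.3% of all genes, but its transcripts were shorter, with a median of 1324 bases against 3202. When the trend of each library on transcript GC and length was removed, 13 members were higher and 6 lower, 25.7% of 74 where 20.8% of all genes were called, with a median of 0.05.

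Of the 29 members called before this correction 22 kept their sign and 9 their call. These 9, all higher, were Mrpl9, Mrpl12, Mrpl15, Mrpl17, Mrpl19, Mrpl36, Mrpl57, Mrps16 and Mrps26. Mrpl17, of the large subunit near the exit tunnel, then had a log2 fold change of 0.90 (adjusted p = 0.00107, limma, after the correction), and Mrpl36 one of 0.80 (adjusted p = 0.0428). The log2 fold change of Mrpl12 was 0.81 before and 0.38 after the correction (adjusted p = 0.0179). The sign turned for Mrpl4, Mrpl14, Mrpl38, Mrpl52, Mrps6, Mrps18a and Mrps34, whose transcripts have a GC content of 53.9% to 60.6%. Mrpl52 had 0.85 before and -0.12 after. Mrpl1 had -0.19 (adjusted p = 0.0366), inside the fold threshold. The 6 members called lower after the correction were Mrpl23, Mrpl54, Mrps15, Mrps18b, Mrps21 and Mrps28, none of which had been called before, with log2 fold changes from -0.36 to -0.78.

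**Figure D4:**
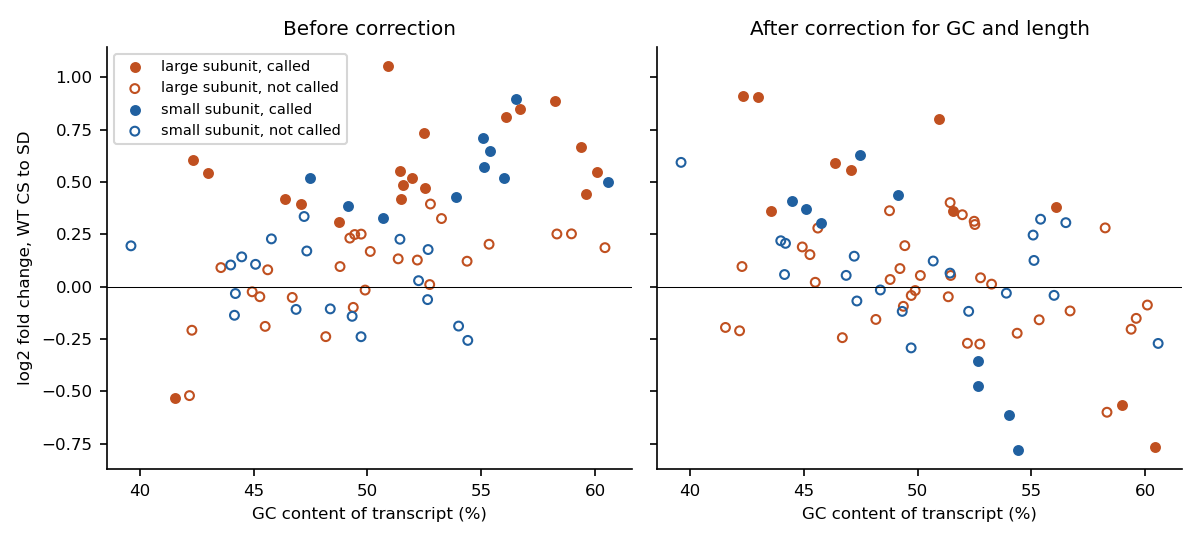
Log2 fold change from WT CS to SD of each of the 74 members (vertical axis) against the GC content of its transcript in percent (horizontal axis), before and after removal of the trend on GC and length. Before the correction 21 of the 28 members that rose lay above the median GC content of 50.4%, and after it called members lie on both sides of 0, 13 higher and 6 lower.

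Members were also divided by origin. Of the 42 tested members with a bacterial counterpart 20 rose and 1 fell (median log2 fold change 0.28), and of the 32 without one 8 rose and none fell (median 0.11). Of all genes tested 24.6% were called higher and 20.5% lower. In the large subunit these medians were 0.32 for 26 genes with and 0.12 for 19 genes without a counterpart, and in the small subunit 0.19 for 16 genes and 0.11 for 13. After the GC and length correction the medians were 0.10 with and 0.00 without a counterpart. These are counts over genes that share libraries, and the difference between the divisions was not tested.

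Paralogs and members whose place differs from the symbol were compared between WT CS and SD. Mrps18a, built into the large subunit, went from 22.8 ± 6.69 rescaled CPM (SD, n = 6) in WT CS to 31.9 ± 4.20 (n = 7) in WT SD and was called higher (log2 fold change 0.52, adjusted p = 0.0217, limma). Its relatives Mrps18b, at 10.5 ± 1.41 and 10.01 ± 1.26, and Mrps18c, at 9.43 ± 1.19 and 10.7 ± 1.68, had log2 fold changes of -0.06 and 0.17 and were not called. Mrps30 was at 16.2 ± 2.07 in CS and 15.8 ± 1.65 in SD. Mrps36, the dehydrogenase subunit, was at 8.63 ± 1.27 and 11.2 ± 2.66, with a log2 fold change of 0.34 that did not pass the test (adjusted p = 0.0733).

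Other genes of mitochondrial translation were counted in lists. Their counts stand against 24.6% of all genes called higher and 20.5% lower, and against 20.8% called in either direction after the GC and length correction. Of 6 mitoribosome proteins under other names 4 rose from WT CS to SD (median 0.40), namely Gadd45gip1 (log2 fold change 0.80), Chchd1 (0.60), Aurkaip1 (0.49) and Dap3 (0.31). After the correction 2 of the 6 were higher and none lower (median 0.22). Of 24 tested genes for assembly of the mitoribosome and modification of its RNA 9 rose and 3 fell (median 0.24), among them Rpusd3 (0.70), the GTPase Mtg2 (0.58) and the pseudouridine synthase Rpusd4 (0.54) higher and the methyltransferase Mettl15 (-0.61) lower. After the correction 2 of the 24 were higher and 2 lower. Of 15 translation factors 3 rose and 1 fell (median -0.10), with the elongation factor Tufm at 0.74 and the GTPase Guf1 at -0.37, and 2 were higher and none lower after the correction. Of 17 mitochondrial aminoacyl-tRNA synthetases 3 rose and 3 fell (median 0.13), and of 11 genes for transcription and upkeep of mitochondrial DNA 5 rose, among them the RNA polymerase Polrmt (0.78), and 2 fell (median 0.25). After the correction none of the synthetases was higher and 1 lower, and 4 of the 11 were higher and none lower. Of 10 transcription factors and coactivators Esrra (0.95) and Pprc1 (0.44) rose and Ppargc1a (-0.55) fell, while after the correction none was higher and 1 lower.

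Larger families of ribosome and respiratory chain genes were set beside the members. From WT CS to SD 46 of 75 tested cytosolic ribosomal protein genes rose and none fell, with a median log2 fold change of 0.58, and 48 of 78 nuclear-encoded respiratory chain genes rose and 3 fell, with a median of 0.52. Of all genes tested 24.6% were called higher and 20.5% lower. For the mitochondrial ribosomal proteins the median was 0.23. After the GC and length correction 19 of the 75 were higher and none lower, and of 77 respiratory chain genes 18 were higher and 8 lower, where 20.8% of all genes were called. The medians were then 0.21 for the cytosolic ribosome, 0.12 for the respiratory chain and 0.05 for the mitochondrial ribosome. These differences between lists were not tested.

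**Figure D5:**
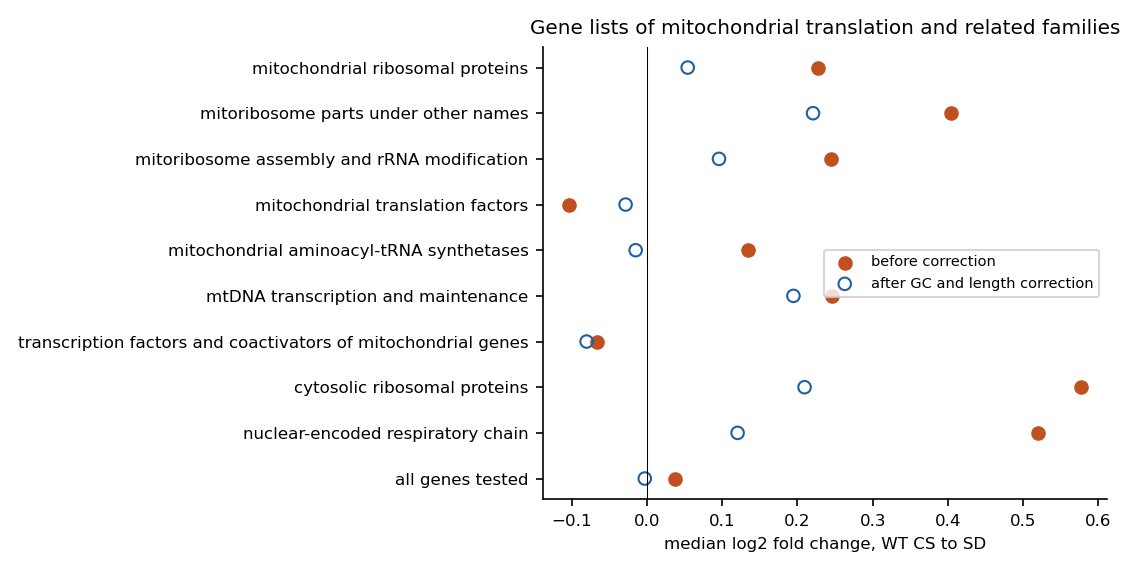
Median log2 fold change from WT CS to SD (horizontal axis) of the 74 members, of 8 related gene lists and of all genes tested, before (filled) and after (open) removal of the trend on GC and length. Before the correction the cytosolic ribosomal proteins (0.58) and the respiratory chain (0.52) lie to the right of the mitochondrial ribosomal proteins (0.23), and after it all of these medians lie between -0.08 and 0.22.

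Markers of other tissue parts moved with the WT groups. All 5 red blood cell genes were called higher in SD, and their summed level was 28.2 to 118 rescaled CPM in CS and 97.9 to 285 in SD. Of 6 meningeal fibroblast markers 3 rose and 1 fell (sums of 24.5 to 58.2 and 52.7 to 77.6), of 6 astrocyte markers 3 rose (887 to 1351 and 1022 to 1306), and of 6 inhibitory neuron markers 2 rose (484 to 694 and 543 to 757). Of 6 endothelial markers 1 rose and 2 fell (216 to 255 and 176 to 220). Excitatory neuron, oligodendrocyte and microglia markers, 6 each, had 1 that rose and 1 that fell per cell type. None of these genes was at 0 in all libraries of a group, and their part in the changes of the members was not tested.

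The comparison of CS with RS asks what remained after 2 hr of recovery sleep. Here 7 of 74 members were higher and 1 lower, 10.8%, where 17.5% of all 12752 genes tested were called (9.28% higher and 8.22% lower). No member had all RS libraries on one side of the CS libraries, which 3.72% of all genes had. All 8 belong to the large subunit, and all 8 were also called in the same direction from CS to SD, a comparison with the same CS libraries. The rises were those of Mrpl28 (log2 fold change 0.81), Mrpl52 (0.70), Mrpl12 (0.59), Mrpl17 (0.49), Mrpl4 (0.48), Mrpl9 (0.38) and Mrpl38 (0.36), and Mrpl1 fell by 0.41. Mrpl12 had 11.6, 15.6 and 21.6 rescaled CPM as lowest, median and highest value in RS, against 7.37, 10.8 and 12.9 in CS, with overlap, and its adjusted p was 0.0359 (limma). Mrpl28 had 15.5, 19.3 and 31.9 in RS against 6.00, 11.3 and 17.7 in CS (adjusted p = 0.0406).

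No small subunit gene was called by limma here, where 17.5% of all genes tested were called. The median log2 fold change from CS to RS was 0.18 over 45 large subunit genes and 0.15 over 29 small subunit genes, with 0.02 for all genes tested. Mrps12 had a log2 fold change of 0.80 and an adjusted p of 0.0585, and Mrpl36 one of 0.87 and an adjusted p of 0.0720, and neither was called. With a single library left out the count went from 0 to 17, and the share of all genes called in these fits is not given here. It was 0 without CS library 1, 2 or 3 and without RS library 3, 4, 5, 6 or 12, and 15 to 17 without CS library 5 or RS library 1 or 2. Without CS library 6 it was 12. After the GC and length correction 2 members were higher (Mrpl17 and Mrpl19) and 2 lower (Mrps18b and Mrps28), 5.41% where 5.97% of all genes were called. Beside these calls 3 of 5 red blood cell genes were higher in RS, with sums of 28.2 to 118 rescaled CPM in CS and 85.3 to 139 in RS, and 2 of 6 inhibitory neuron markers were higher (484 to 694 and 585 to 876). At most 1 marker of any other cell type was called, and the part of these cells was not tested.

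Between SD and RS no member was called, by limma, edgeR or DESeq2. Of all 12921 genes 0.0232% were called by limma or edgeR and 0.418% by DESeq2. The median log2 fold change was -0.05, with -0.0047 for all genes. With an unadjusted p up to 0.05 there was 1 member, where 5.29% of all genes passed, and this was Mrps6 (log2 fold change -0.23, adjusted p = 0.800). Log2 fold changes lay between -0.23 and 0.12 for all 74.

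In Mef2c f/f mice the same 6 hr of deprivation gave no called member, where 0.0403% of all 12410 genes tested were called. With an unadjusted p up to 0.05 there were 14 members, 13 of them with a positive sign, where 17.01% of all genes passed. edgeR called none of the members and 0.0725% of all genes. DESeq2 called 3 members, Mrpl32, Mrpl34 and Mrps14, and 3.76% of all genes, so the share called depended on the method. The median log2 fold change was 0.08 against -0.0043 for all genes, 0.09 in the large and 0.04 in the small subunit. Every SD library was above every CS library for 17 members and below for 1, where 8.53% and 8.90% of all genes were. The largest log2 fold change was that of Mrpl34, whose f/f CS libraries had 3.94, 4.23, 4.25 and 4.53 rescaled CPM and whose f/f SD libraries had 5.58, 5.91 and 6.51. These groups did not overlap, but the log2 fold change of 0.46 had an adjusted p of 0.120 (limma).

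In Mef2c-cKO mice the median log2 fold change from CS to SD was -0.0096, and no member was called by limma, edgeR or DESeq2. Of all 12810 genes 0.0234% were called by limma or edgeR and 0.195% by DESeq2. With an unadjusted p up to 0.05 there were 4 members, where 3.05% of all genes passed. All 4 are of the small subunit, and Mrps18c (log2 fold change 0.32) and Mrps27 (0.20) had positive and Mrps34 (-0.30) and Mrps16 (-0.24) negative log2 fold changes. Every SD library was above every CS library for 5 members and below for 11, where 4.49% and 4.56% of all genes were. Of the exon bases of Mrps34 37.0% are shared with Nme3 on the same strand, so its reads are uncertain.

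Whether the response to deprivation differed between genotypes was tested as an interaction, called on the adjusted p alone. Between Mef2c-cKO and f/f mice no member was called by limma or edgeR, where 0.00778% of all 12860 genes were. DESeq2 called Mrps27, where it called 0.459% of all genes. With an unadjusted p up to 0.05 there were 12 members, where 7.81% of all genes passed, with Mrps27 the only positive one (log2 difference of the responses 0.44, adjusted p = 0.436). Between f/f and WT mice 5 members were called, 6.76% where 15.1% of all 13106 genes were, and 16 had an unadjusted p up to 0.05, where 40.04% of all genes did. The response of f/f mice was lower for Mrpl52 (by -0.89, SE 0.28), Mrps24 (-0.81), Mrpl12 (-0.67) and Mrps6 (-0.48) and higher for Mrpl1 (0.51), with adjusted p of 0.0438 to 0.0495. In the same interaction all 5 red blood cell genes were called lower (median -2.62), with sums of 123 to 183 rescaled CPM in f/f CS and 56.4 to 105 in f/f SD, opposite to their rise in WT. Of 6 meningeal fibroblast markers 1 was called higher and 2 lower, of 6 oligodendrocyte markers 2 higher, and the part of these cells in the 5 members was not tested.

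The values behind these differences are given for Mrpl12 and Mrpl1. Mrpl12 in f/f CS had 12.1, 13.1, 13.4 and 15.5 rescaled CPM and in f/f SD 13.4, 15.1 and 16.5, which overlap, with a log2 fold change of 0.14 against 0.81 in WT. Mrpl1 in f/f CS had 35.3, 40.6, 46.3 and 53.4 and in f/f SD 41.7, 42.9 and 43.4, so that the SD values lay inside the CS range. With a single library left out the number of called members went from 0 to 9, and the share of all genes called in these fits is not given here. It was 0 without WT CS library 3, WT SD library 4, 8 or 9, f/f CS library 2, 3 or 4, or any f/f SD library, 1 without WT CS library 1 or WT SD library 2, and 3 without WT CS library 2. It was 9 without WT CS library 5 and 8 without WT CS library 6, WT SD library 3 or f/f CS library 1. After the GC and length correction none of the 5 was called and the sign turned for Mrpl52 (0.06), while Mrpl40 was called (1.35% of the members against 2.43% of all genes). WT and f/f libraries differ in depth and in the listed totals given above, and genotype cannot be told apart from these here.

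Loss of Mef2c in the Camk2a-Cre mice was compared with f/f under each sleep condition. In CS 4 members were higher and 1 lower in Mef2c-cKO, 6.76% where 7.67% of all 12681 genes tested were called (3.17% higher and 4.50% lower). The median log2 fold change of the 74 was 0.15, with 0.03 for all genes, and 60 of the 74 had a positive sign. The median was 0.17 in the large and 0.14 in the small subunit.

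Mrpl34, a small protein with a bacterial counterpart, had 3.94, 4.23, 4.25 and 4.53 rescaled CPM in f/f CS and 6.05, 7.08 and 9.35 in cKO CS (log2 fold change 0.74, adjusted p = 0.0296, limma). Mrpl20 had 29.5, 31.4, 33.3 and 39.2 against 44.3, 54.0 and 54.2 (0.60, adjusted p = 0.0231). In both, every cKO library was above every f/f library. Mrpl41, a protein added in mitochondria, had 20.2, 21.1, 21.5 and 21.7 in f/f CS and 28.0, 29.4 and 29.4 in cKO CS (0.44, adjusted p = 0.0185).

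The small subunit gave 1 call in each direction. Mrps26 had 16.8, 16.9, 18.3 and 21.1 rescaled CPM in f/f CS and 25.5, 25.7 and 26.3 in cKO CS (0.50, adjusted p = 0.0265, limma). Mrps27, an RNA-binding protein of the pentatricopeptide repeat type, had 34.4, 40.2, 40.2 and 40.3 in f/f CS and 26.7, 27.2 and 29.02 in cKO CS. It fell by 0.48 on the log2 scale (SE 0.092; limma, adjusted p = 0.0210), and the groups did not overlap. Of its exon bases 24.2% lie opposite 6430562O15Rik on the other strand. For 27 members every cKO CS library was above every f/f CS library and for 2 below, where 13.4% and 13.5% of all genes were.

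Single libraries changed these calls, and the share of all genes called with a library left out is not given here. With 1 library left out between 0 and 6 members were called, namely 0 without cKO CS library 7, 1 without f/f CS library 3, 2 without f/f CS library 2 or cKO CS library 5, and 3 without cKO CS library 8. After the GC and length correction Mrpl20, Mrps26 and Mrps27 were called (4.05% of the members against 11.98% of all genes), and the members had a median of 0.03. Marker levels of other cells moved beside these calls, and their part was not tested. Summed levels of 6 meningeal fibroblast markers were 37.0 to 41.5 rescaled CPM in f/f CS and 47.2 to 49.8 in cKO CS (2 of 6 called higher), those of 6 oligodendrocyte markers 1839 to 2203 and 2170 to 2937 (2 called higher), and those of 5 red blood cell genes 123 to 183 and 10.7 to 108 (2 called lower). Those of 6 astrocyte markers were 912 to 967 and 1098 to 2767 (1 called higher) and those of 6 microglia markers 137 to 158 and 163 to 436 (none called), where the cKO CS medians were 1101 and 195 and both highest values came from cKO CS library 8. No marker was at 0 in a whole group.

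After deprivation only Mrpl52 was called between the genotypes, 1.35% where 15.1% of all 12774 genes were called, 9.10% higher. It had 7.53, 7.96 and 9.34 rescaled CPM in f/f SD and 13.6, 14.6 and 15.8 in cKO SD, and the groups did not overlap. The log2 fold change was 0.79 ± 0.11 (SE; limma, adjusted p = 0.00303), and 0.55 after the GC and length correction (adjusted p = 0.00563). In CS the same gene had 7.40, 7.76, 8.65 and 10.5 in f/f and 7.37, 15.6 and 17.9 in cKO mice, where 1 cKO library lay below all f/f libraries and 0.56 on the log2 scale was not called (adjusted p = 0.210). With cKO SD library 5, 6 or 7 left out 2 members were called, and the share of all genes called in these fits is not given here. Of the 6 microglia markers 4 were called higher in cKO SD, with sums of 149 to 155 rescaled CPM in f/f SD and 186 to 204 in cKO SD. Of the 6 inhibitory neuron markers 3 were higher and 1 lower (532 to 608 and 706 to 824), of the 6 astrocyte markers 2 higher (983 to 1000 and 1169 to 1295), and of the 6 excitatory neuron markers 2 lower (2391 to 2540 and 1908 to 2121). None of these sums overlapped, and their part in the call of Mrpl52 was not tested. The median over all members in SD was 0.07, with 0.01 for all genes tested. Mrps27, lower in cKO mice in CS, had 31.8, 32.0 and 34.2 in f/f SD and 29.9, 32.2 and 33.5 in cKO SD, which overlap.

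Mrps18c was the 1 member of 74 whose range did not overlap between the 20 WT libraries and the 13 libraries of the Mef2c line, and it was chosen after its values were seen. It had 8.47, 10.2 and 14.2 rescaled CPM as lowest, median and highest value in WT and 16.0, 21.2 and 27.4 in the Mef2c line, where 0.758% of all genes lay higher in this way and 5.44% did not overlap in either direction. Of its exon bases 23.2% are shared with Gm43511 on the same strand. The listed CPM totals and the zeros of Twnk and Mrm3 separate the same 2 sets of libraries, and genotype cannot be told apart from such differences in the table.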

How the data were processed

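RNA-seq of frontal cortex from 33 mice was analysed, 1 library each, grouped by the genotype and sleep condition in the sample labels. The values deposited by the authors are CPM (read counts scaled to the library total) from edgeR, made from Trimmomatic-trimmed reads that STAR placed on mm10 and HTSeq assigned to genes where unique. Versions, the annotation release and the strand setting of the counting are not given in the sources used here. All 711645 deposited CPM values were whole numbers of reads within 0.01 after multiplication by a library total, from which depth (18935045 to 249046089 reads) was taken.

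Each library was rescaled by a median-of-ratios factor from 11570 genes (CPM 1 or more in all libraries). A pseudocount of 0.5 was added and log2 values were tested with limma 3.58.1 (R 4.3.3, moderated with a trend) on the compared groups alone. Tests covered genes that reached CPM 1 in every replicate of a compared group, and p-values were adjusted by Benjamini-Hochberg over all of them. Fold changes are on the log2(rescaled CPM + 0.5) scale, which understates changes of low genes. Calls needed an adjusted p up to 0.05 with a log2 fold change of 0.3 or more in either direction, interactions the adjusted p alone. The limma steps were also run on simulated reads with known changes. Those reads held no trend on GC or length, so that run does not test calls under such a trend. Nothing in the labels ties replicates to separate litters or days, and p-values measure the spread between these mice.

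Alternatives were CPM as deposited, quantile normalization, a pseudocount of 1, other filters, removal of each library's trend on GC and length (natural splines with 5 and 4 degrees of freedom, GENCODE M21, 19231 symbols matched directly and 243 through a synonym), edgeR 4.0.16 and DESeq2 1.42.0 on the recovered reads, a replicate block, and each library left out. A fit to annotated genes only was added after seeing the data. Named genes were, per comparison, the 12 called members with the largest log2 fold change and any called against the majority, the 3 with the smallest adjusted p from WT CS to SD, those called in an interaction, the 5 highest and 5 lowest levels per kb, the Mrps18 paralogs, Mrps30, Mrps36 and members that missed the filter, and up to 4 called genes of each other list. Members outside this rule were named after their values were seen. The members and lists were chosen with earlier results of these data known.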

Additional observations from a re-analysis of the deposited data

Results flagged for a closer look

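Among 148 groups of 4 to 10 values over 35 named members, the median of the members and the difference between the subunits, 10 held a library far from the others, where chance gives about 1 in 20. The median of the large minus that of the small subunit was -0.14 in WT SD library 3, with 0.04 to 0.16 in the other SD libraries. In WT CS, library 2 had 74.9 rescaled CPM of Mrpl1 (others 49.5 to 57.6) and library 1 had 36.9 of Mrpl42 (others 28.1 to 31.4). WT CS library 5 had 27.2 of Mrpl57 (others 9.36 to 10.7) and 14.2 of Mrps24 (others 8.40 to 10.4). WT SD library 2 had 30.1 of Mrpl57 (others 13.5 to 20.1), 29.6 of Mrps24 (others 12.7 to 18.5) and 14.2 of Mrps18c (others 9.27 to 11.1). In f/f CS, library 1 had 34.4 of Mrps27 (others 40.2 to 40.3) and library 3 had 30.3 of Mrps28 (others 20.1 to 21.7). The causes were not tested.

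The response to deprivation differed between f/f and WT mice for 5 members, by an interaction in limma. The difference, f/f minus WT, was 0.51 on the log2 scale for Mrpl1 (standard error 0.16), -0.67 for Mrpl12 (0.22), -0.89 for Mrpl52 (0.28), -0.81 for Mrps24 (0.27) and -0.48 for Mrps6 (0.16), with adjusted p of 0.0438 to 0.0495. WT and f/f libraries differ in depth and in the total of the CPM listed, and genotype cannot be told apart from these.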

How the results depend on the processing

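From WT CS to SD 29 members were called, and 51 with CPM as deposited (median log2 fold change 0.49), 19 after the GC content and length correction (median 0.054) and 1, Mrpl52, with the replicate block. Of all genes tested 45.1% were called, 53.5% with CPM as deposited, 20.8% after the correction and 2.22% with the replicate block. The correction turned the sign of Mrps34 (-0.27), Mrpl14 (-0.20), Mrpl38 (-0.15), Mrpl4 (-0.087), Mrpl52 (-0.12), Mrps18a (-0.041) and Mrps6 (-0.031). From WT CS to RS 8 were called, and 15 with CPM as deposited (median 0.35), 4 with quantile normalization, 0 with no filter, 4 after the correction, 15 with DESeq2 and 23 with the replicate block, and the correction turned Mrpl38 (-0.14), Mrpl4 (-0.055) and Mrpl52 (-0.12). Here 17.5% of all genes were called, 20.9% with CPM as deposited, 13.2% with quantile normalization and 1.99% with no filter. After the correction it was 5.97%, with DESeq2 26.8% and with the replicate block 33.6%. DESeq2 called 3 from f/f CS to SD, where it called 3.76% of all genes. Between f/f and cKO in CS 5 were called, and 13 with CPM as deposited (median 0.26), 3 after the correction (median 0.032) and 11 with DESeq2. The share of all genes was 7.67%, and 9.68% with CPM as deposited, 11.98% after the correction and 16.5% with DESeq2. In SD 1 was called, and 4 with no fold threshold, 8 with CPM as deposited (median 0.14), 4 after the correction (median -0.044) and 2 each with edgeR and DESeq2, and quantile normalization gave a median of -0.0076. Of all genes 15.1% were called in SD, at least as many with no fold threshold, 17.1% with CPM as deposited, 15.2% after the correction, 15.2% with edgeR and 17.9% with DESeq2. For the interaction of cKO and f/f DESeq2 called 1, where it called 0.459% of all genes, and the replicate block gave a median of -0.16. For that of f/f and WT 5 were called, and 14 with CPM as deposited (median -0.41), 2 with quantile normalization (median -0.033), 0 with no filter, 1 after the correction (median -0.0038, large minus small subunit 0.088, Mrpl52 0.063), 1 with edgeR and 0 with the replicate block. In this interaction 15.1% of all genes were called, 26.1% with CPM as deposited, 10.7% with quantile normalization and 5.94% with no filter. After the correction it was 2.43%, with edgeR 12% and with the replicate block 0%. The causes were not tested.

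With each library left out, called members numbered 23 to 34 from WT CS to SD, 0 to 17 from CS to RS, 0 to 2 from f/f CS to SD, 0 to 6 between f/f and cKO in CS, 1 to 2 in SD and 0 to 9 for the interaction of f/f and WT, and 0 throughout from SD to RS, cKO CS to SD and for the interaction of cKO and f/f. Without the share of all genes called in the same fits, these ranges do not tell the members from other genes. The large minus small subunit median took both signs, with -0.0069 to 0.089 from WT CS to RS, -0.028 to 0.014 from SD to RS, -0.024 to 0.023 from cKO CS to SD, and -0.017 to 0.051 between f/f and cKO in CS and -0.018 to 0.017 in SD. A pseudocount of 1 kept all 41 calls of named genes. Whether equal replicate numbers mark pairs is not stated by the labels. The correlation of the deviations of such WT libraries from their group means was -0.33 to 0.55 between CS and SD. It was 0.07 to 0.67 between CS and RS and -0.73 to 0.33 between SD and RS. Of these 2 of 5, 2 of 6 and 1 of 5 correlated best with their own number. From CS to SD it was 2 of 3 in f/f (0.05 to 0.26) and 2 of 2 in cKO mice (0.07 to 0.15). So few pairs cannot decide the question. No paired analysis was possible between f/f and cKO because these groups share no replicate number.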
